A study of Mus musculus with 48 samples.

Results

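Colon RNA of male mice without Bmal1 in the intestinal epithelium was compared with that of control mice at CT9, late in the circadian day, when the controls carried little Arntl RNA. Arntl is the gene symbol of Bmal1. The comparison held the 8 of 48 mice that the labels place at CT9, 4 labelled KO and 4 labelled WT, with 1 colon library per mouse and no pooling. The KO mice were Bmal1fl/fl x Villin CRE/wt (Bmal1 IEC-/-), and the controls were their Bmal1fl/fl x Villin wt/wt littermates, so that the floxed gene was shared by both groups and Cre was carried by the Bmal1 IEC-/- mice alone. All were C57BL/6J males of 18 to 20 weeks, single-housed with a running wheel in SPF housing, fed chow ad libitum, kept in a 12 h light, 12 h dark cycle and killed in constant darkness, on its second day. The Villin promoter drives Cre in intestinal epithelial cells, so muscle, immune cells, vessels and nerves in the colon pieces kept Bmal1. The other 40 mice were 4 of each genotype at CT1, CT5, CT13, CT17 and CT21. All of them but SV384 and SV385, Bmal1 IEC-/- mice at CT1, served for the spread. The same mice also served to ask whether a difference at CT9 departed from that at the other times.

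BMAL1 pairs with CLOCK or NPAS2 and activates genes through E-boxes, among them the Per and Cry repressors, the Rev-erb receptors Nr1d1 and Nr1d2, and Dbp and Tef. PER and CRY proteins inhibit BMAL1 and CLOCK, whereas the Rev-erb receptors repress, and the ROR receptors activate, a set of genes that includes Arntl itself, Npas2, Cry1 and Nfil3. DBP, TEF and HLF activate a further set through D-boxes, on which NFIL3 is a repressor. In the colon these loops time genes of barrier, transport and defence in the epithelium.

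Arntl (ENSMUSG00000055116, GRCm38 chr7:113207465-113314126) was higher, not lower, in the colon of Bmal1 IEC-/- mice at CT9. Its normalized counts (counts divided by a size factor for depth) were 104, 85.8, 106 and 158 in the Bmal1 IEC-/- mice SV400, SV402, SV410 and SV418 and 22.6, 15.9, 31.9 and 35.2 in the control mice SV401, SV412, SV415 and SV420, an order kept for every gene given mouse by mouse. The lowest Bmal1 IEC-/- mouse stood above the highest control. The difference was 4.2-fold (log2 fold change 2.07, SE 0.19, edgeR adjusted p = 1.67e-10). Throughout, the adjusted p is from the quasi-likelihood F test of edgeR, with the Benjamini-Hochberg method over all genes tested. The deposited count sums reads over the whole gene and the whole tissue, so it does not show whether the floxed part is missing and checks nothing about the genotype labels. In control mice the mean fell to its lowest of the 6 times at CT9, 26.4 ± 8.81 normalized counts (SD, n = 4), against 260.0 ± 18 at CT1, whereas in Bmal1 IEC-/- mice it was 114 ± 31.1 at CT9 and 177 ± 6.67 (n = 2) at CT1.

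Promoter stretches of 5 genes that passed the test at CT9 are shown, since they hold the letters through which the clock proteins named above are known to act. They were read 5′ to 3′ from RefSeq promoters of GRCm38.p6, from 15 bases before the first match up to the base before the annotated start of the gene. Capitals mark CACGTG (E-box), AGGTCA (the core of the ROR and Rev-erb element) or TTATGTAA (D-box), searched on both strands over 250 bases before the start.
Ciart, chr3:95882252-95882359 (-): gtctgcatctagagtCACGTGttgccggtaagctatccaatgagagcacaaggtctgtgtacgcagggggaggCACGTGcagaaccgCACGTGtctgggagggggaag
Cry1, chr10:85185065-85185129 (-): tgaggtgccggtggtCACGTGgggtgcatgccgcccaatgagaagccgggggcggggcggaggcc
Nr1d2, chr14:18239128-18239198 (-): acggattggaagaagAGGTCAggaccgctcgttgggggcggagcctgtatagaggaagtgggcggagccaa
Per3, chr4:151044666-151044885 (-): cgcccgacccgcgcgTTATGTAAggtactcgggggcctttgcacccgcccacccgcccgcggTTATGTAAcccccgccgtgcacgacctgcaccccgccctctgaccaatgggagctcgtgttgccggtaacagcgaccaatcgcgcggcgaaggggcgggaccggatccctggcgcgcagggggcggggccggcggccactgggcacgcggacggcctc
Slc20a1, chr2:129198583-129198763 (+): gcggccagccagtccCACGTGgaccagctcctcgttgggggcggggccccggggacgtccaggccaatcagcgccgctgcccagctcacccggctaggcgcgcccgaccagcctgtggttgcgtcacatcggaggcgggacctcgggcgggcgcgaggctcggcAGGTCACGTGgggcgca
Ciart held 3 E-boxes and Cry1 held 1. Nr1d2 held 1 AGGTCA, and Per3 held 2 D-boxes. Arntl, Npas2, Nr1d1 and Dbp, also called, held none of the letters searched in this window. Clock genes not called held some of them in at least 1 promoter sequence: CACGTG in Per1 and Bhlhe41, and AGGTCA in Per1 and Clock. Slc20a1 held 2 E-boxes, the one nearer the gene overlapping an AGGTCA as AGGTCACGTG. These letters are a description and do not show binding. CACGTG was in 6.86% of the 27025 genes with a promoter sequence and in 9.54% of the 11098 tested genes with one, against 7 of 51 genes called higher (13.7%) and 11 of 64 called lower (17.2%). AGGTCA was in 13.3% of tested genes, 31.4% of those called higher (16 of 51) and 12.5% of those called lower (8 of 64). The full ROR and Rev-erb element, this core with its A- and T-rich flank, was in 0.162% of tested genes and in 2 of 51 called higher, and TTATGTAA in 0.595% of tested genes and in 3 of 64 called lower. The palindromic D-box TTACGTAA was in 0.162% of tested genes and in 0 of 51 called higher and 0 of 64 called lower. No promoter sequence was given for Cldn8, Tns4, Bhlhe40 and Per2.

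The 8 libraries held 3308498 to 4280587 counts in Bmal1 IEC-/- and 3567093 to 4290393 in control mice, on 19821 to 20674 and 20323 to 20581 genes, with 4.07% to 6.71% and 4.90% to 6.04% mitochondrial counts. By the chi-square between their counts, the Bmal1 IEC-/- mice fell into pairs. It was, per gene, 4.53 between SV402 and SV410 and 6.46 between SV400 and SV418, but 8.98 to 11.8 across these pairs, against 3.75 to 4.39 among controls. By the correlation of log2 normalized counts, SV402 and SV410 were again the closest (r = 0.970), but SV400 was about as close to SV402 (0.966) as to SV418 (0.965). The labels do not say what the pairs share. Mitochondrial counts were 4.66% and 4.07% in SV402 and SV410, and 5.72% and 6.71% in SV400 and SV418. Whether this bears on the pairs was not tested. For each gene named at CT9, a call that was lost without a pair is given beside its value.

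Across the transcriptome, 152 of 15073 genes tested (1.01%) differed at an adjusted p under 0.05 and by more than 1.5-fold, here called. Upward calls in the Bmal1 IEC-/- group numbered 72 (0.478%) and downward calls 80 (0.531%). The median log2 fold change over all genes tested was -0.0053. At an adjusted p under 0.05 with any fold change there were 269 genes, 130 higher and 139 lower. Among the called genes, 71 changed by more than 2-fold and 20 by more than 4-fold, 13 of the latter upwards. In 130 of the 152 the mice of the groups did not overlap, which held for 630 (4.18%) of all genes tested. Without SV400 and SV418, 180 genes were called, 102 of them among the 152, and without SV402 and SV410, 268 were called, 116 of them among the 152.

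**Figure D1:**
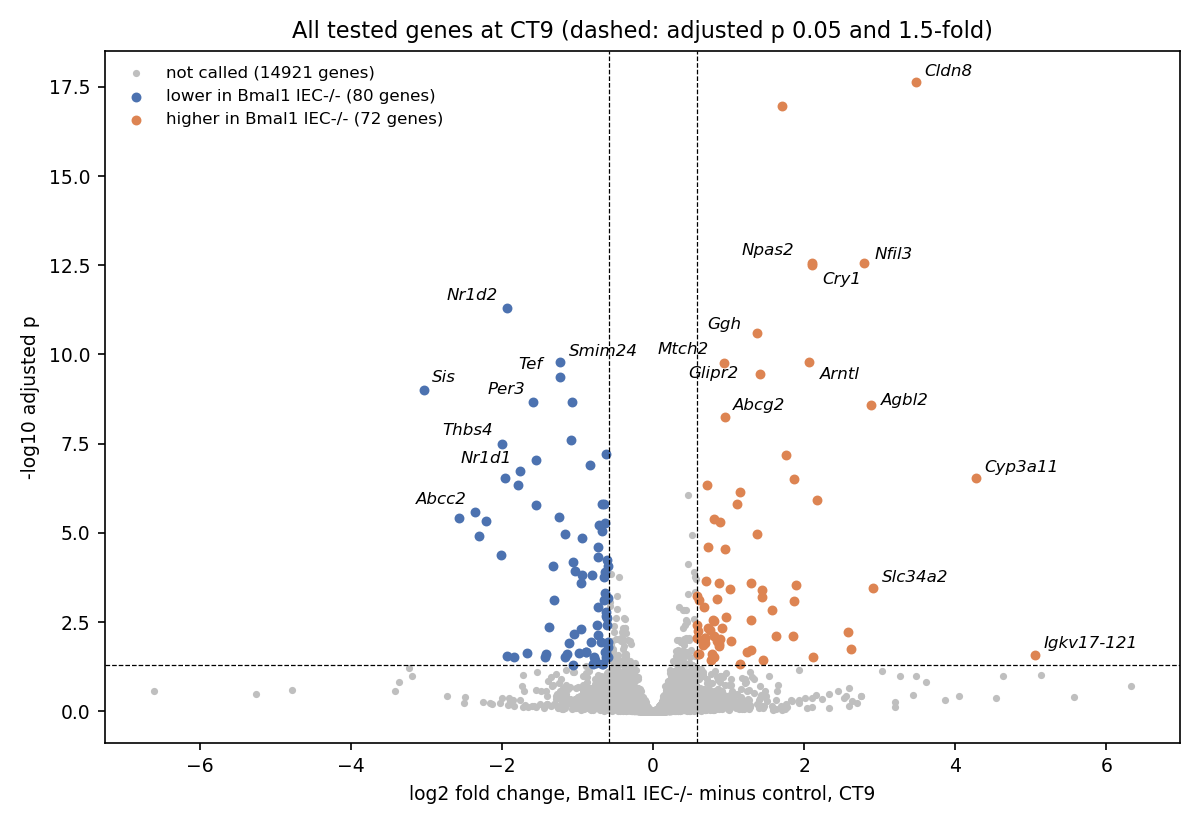
Each point is 1 of 15073 genes, with the log2 fold change of Bmal1 IEC-/- minus control at CT9 on the x axis and -log10 of the edgeR adjusted p on the y axis. Dashed lines mark an adjusted p of 0.05 and 1.5-fold, and the 72 genes called higher and 80 called lower lie outside them, with Cldn8 the highest point and Sis the furthest left of those labelled.

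In the positive arm of the clock, the called genes were higher. Of 5 tested genes of the activator list, 2 were called higher and 0 lower, with a median of 0.25. Over all genes tested, 1.01% were called. Npas2, the paralogue of Clock that partners BMAL1, was at 241, 269, 334 and 281 in Bmal1 IEC-/- and 62.8, 43.5, 47.9 and 101 in control mice. The highest control lay below the lowest Bmal1 IEC-/- mouse, a 4.31-fold difference (log2 fold change 2.11, SE 0.16, edgeR adjusted p = 2.72e-13). Rora, which encodes a ROR receptor, was at 39.7, 51.3, 57.1 and 70.8 in Bmal1 IEC-/- and 72.7, 79.6, 86.1 and 73.2 in control mice, with no overlap and all Bmal1 IEC-/- mice lower. Its log2 fold change of -0.52 (SE 0.13, edgeR adjusted p = 0.0177) was under the 1.5-fold limit, and its adjusted p rose above 0.05 without mouse SV412, SV415, SV400 or SV402 (edgeR adjusted p from 0.0591 to 0.178) and without either pair (0.052 and 0.0676). Without SV418 it was called (log2 fold change -0.66, edgeR adjusted p = 0.00185). Clock, the usual partner of BMAL1, was at 444, 279, 255 and 496 in Bmal1 IEC-/- and 292, 294, 346 and 301 in control mice, and the groups overlapped (log2 fold change 0.25, SE 0.17, edgeR adjusted p = 0.689). The Bmal1 IEC-/- values of Clock followed the pairs: without SV402 and SV410 the log2 fold change was 0.61 (edgeR adjusted p = 0.049), and without SV400 and SV418 it was -0.19 (edgeR adjusted p = 0.696). Arntl2, a paralogue of Arntl, was at 21.3, 13.3, 9.14 and 19.9 in Bmal1 IEC-/- and 24.5, 17, 13.8 and 22.6 in control mice, which overlapped (log2 fold change -0.30, SE 0.32, edgeR adjusted p = 0.834).

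In the negative arm and among the output factors, most of the called genes were lower. Of 14 genes of this list, 6 were called lower and 2 higher, with a median of -0.67, beside 1.01% called of all genes tested. Nr1d2 (Rev-erb beta) was at 229, 238, 235 and 163 in Bmal1 IEC-/- and 833, 939, 909 and 633 in control mice, a 3.83-fold difference (log2 fold change -1.94, SE 0.16, edgeR adjusted p = 5.07e-12). Nr1d1 (Rev-erb alpha) was at 148, 203, 248 and 59.7 in Bmal1 IEC-/- and 711, 560.1, 548 and 409 in control mice (3.38-fold, log2 fold change -1.76, SE 0.22, edgeR adjusted p = 1.84e-07). Both receptors were lower in every Bmal1 IEC-/- mouse than in any control, and mouse SV418 was the lowest for both. Ciart, which encodes a repressor of BMAL1 and CLOCK and whose stretch above holds 3 E-boxes, was at 40.7, 38.9, 57.1 and 15.5 in Bmal1 IEC-/- and 147, 181, 134 and 127 in control mice (3.87-fold, log2 fold change -1.95, SE 0.24, edgeR adjusted p = 2.81e-07). Per3 was at 130.3, 160.0, 172 and 139 in Bmal1 IEC-/- and 534, 502, 439 and 321 in control mice (2.99-fold, log2 fold change -1.58, SE 0.16, edgeR adjusted p = 2.2e-09). Neither gene overlapped between the groups. Of the D-box activators, Tef was at 408, 473, 545 and 386 in Bmal1 IEC-/- and 1121, 1193, 1064 and 854 in control mice (2.35-fold, log2 fold change -1.23, SE 0.12, edgeR adjusted p = 4.36e-10). Dbp was at 116, 139.7, 189.6 and 63.0 in Bmal1 IEC-/- and 470.3, 419, 339 and 258 in control mice (2.94-fold, log2 fold change -1.55, SE 0.21, edgeR adjusted p = 1.61e-06). Both were lower without overlap, while Hlf, the remaining activator of this family, was at 115, 122, 122 and 87.3 in Bmal1 IEC-/- and 112, 151, 108 and 84.0 in control mice and overlapped (log2 fold change -0.03, SE 0.18, edgeR adjusted p = 0.984).

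The 2 members called higher were repressors. Nfil3, the D-box repressor, was at 91.5, 91.1, 92.5 and 96.2 in Bmal1 IEC-/- and 14.7, 9.55, 8.51 and 19.0 in control mice. The Bmal1 IEC-/- mice were close together and far above every control, a 6.96-fold difference (log2 fold change 2.80, SE 0.21, edgeR adjusted p = 2.72e-13). Cry1, which inhibits BMAL1 and CLOCK, was at 228, 264, 267 and 275 in Bmal1 IEC-/- and 39.3, 75.3, 38.3 and 84.0 in control mice, again with no overlap (4.31-fold, log2 fold change 2.11, SE 0.16, edgeR adjusted p = 3.15e-13). The related Cry2 was at 225, 293, 337 and 272 in Bmal1 IEC-/- and 231, 235, 237 and 247 in control mice, and the groups overlapped (log2 fold change 0.24, SE 0.15, edgeR adjusted p = 0.637).

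The other 2 Period genes were not called at CT9. Per1 was at 175, 232, 199.9 and 104 in Bmal1 IEC-/- and 320.1, 402, 420.1 and 322 in control mice. Its groups did not overlap and it was 2.06-fold lower, but the test was not passed (log2 fold change -1.04, SE 0.31, edgeR adjusted p = 0.0778). With limma and voom weights its adjusted p was 0.045, and without SV402 and SV410 its edgeR adjusted p was 0.0441. Per2 was at 230.1, 266, 214 and 272 in Bmal1 IEC-/- and 219, 335, 228 and 304 in control mice, which overlapped (log2 fold change -0.15, SE 0.18, edgeR adjusted p = 0.866). The control mean of Per2 rose from 38.6 ± 10.4 at CT1 to 784 ± 159 at CT13 (SD, n = 4), and its log2 difference ran from 2.29 at CT1 through -0.15 at CT9 to -0.92 at CT13. Of the E-box repressors of the DEC family, Bhlhe40 was at 601, 604, 649 and 679 in Bmal1 IEC-/- and 773, 801, 649.8 and 596 in control mice (log2 fold change -0.16, SE 0.14, edgeR adjusted p = 0.788), and Bhlhe41 was at 20.3, 30.1, 20.6 and 13.3 in Bmal1 IEC-/- and 33.4, 36.1, 18.1 and 17.2 in control mice (log2 fold change -0.30, SE 0.34, edgeR adjusted p = 0.852). Both overlapped between the groups.

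**Figure D2:**
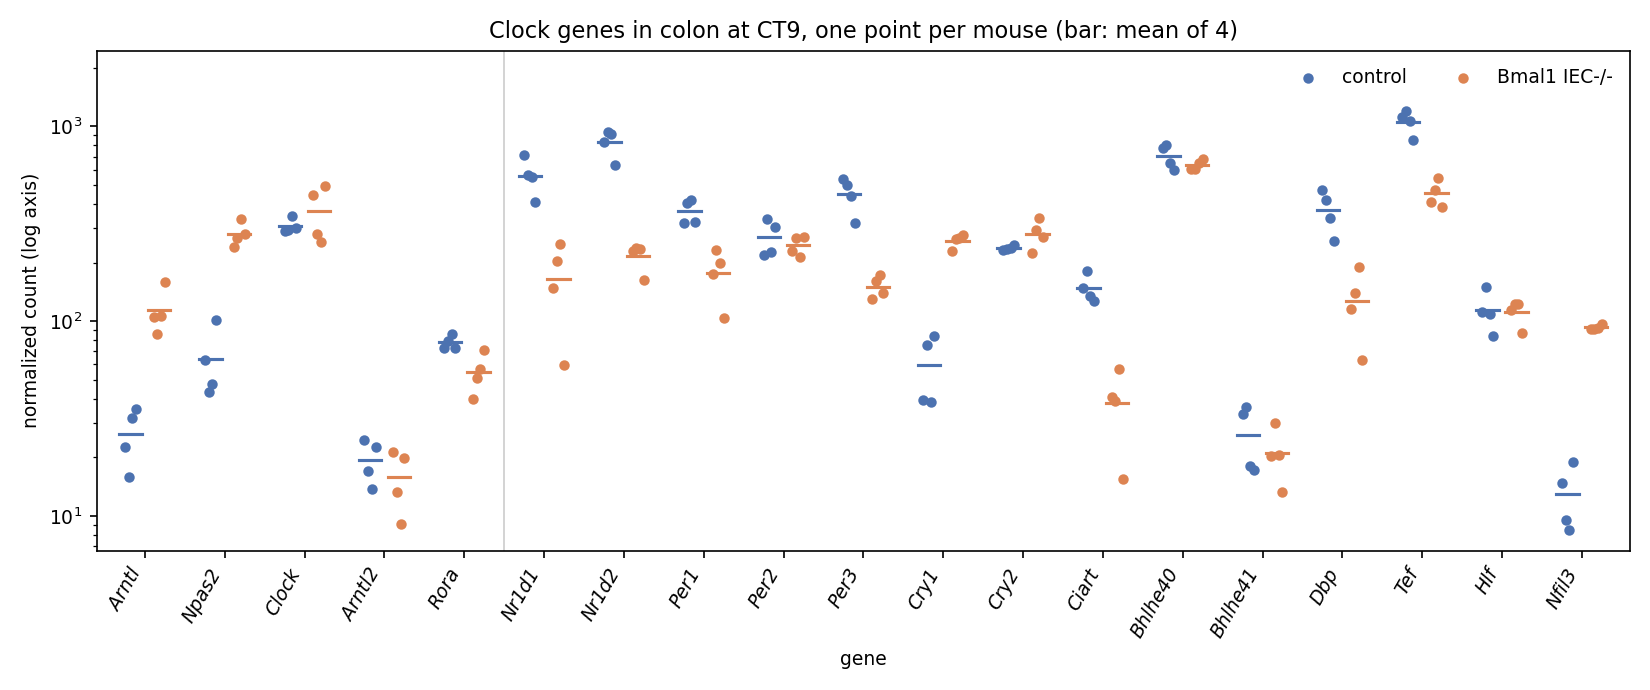
Normalized counts on a log axis of each mouse at CT9 are plotted for 5 activators and 14 repressors and output factors of the clock, with Bmal1 IEC-/- and control mice as separate points. Arntl, Npas2, Cry1 and Nfil3 stand above the controls, and Nr1d1, Nr1d2, Per3, Ciart, Dbp and Tef below them.

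Most differences at CT9 had the same sign at the other times, in other mice. Of the 152 called genes, 97 (63.8%) had the sign of CT9 at all 5 other times, against 13% of all genes tested, 44 had it at 4 and 5 at 2 or fewer. The median size was 0.95 (log2) at CT9 and 0.49, in the direction of CT9, as a mean of the other times, where a smaller value is also what choosing the genes at CT9 gives. To ask which differences were particular to CT9, the difference there was tested against the mean of the other 5 times. This test was passed by 18 of 15073 genes (0.119%), 8 upwards and 10 downwards, at an adjusted p under 0.05, and each of these was also called at CT9. Set against CT5 and CT13 only, the neighbouring times, 0 genes passed with edgeR (738 at an unadjusted p under 0.05), so that the departure is one from the mean of the other times and none was shown against the hours around CT9.

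Nfil3 departed most (log2 1.96, SE 0.23, edgeR adjusted p = 5.96e-07). Its log2 difference was 0.69 at CT1, 1.81 at CT5, 2.80 at CT9, 1.23 at CT13, 0.50 at CT17 and -0.03 at CT21. Arntl followed a later course (log2 1.92, SE 0.21, edgeR adjusted p = 1.46e-07), with -0.56, -0.02, 2.07, 1.93, 0.28 and -0.86 at these times. Both genes were thus near or below zero at some hours. Cldn8, a claudin that seals tight junctions of the distal gut against sodium, was raised at all 6 times and most at CT9 (log2 1.59, SE 0.20, edgeR adjusted p = 2.53e-06), with 0.95, 1.75, 3.48, 3.36, 2.11 and 1.32. Npas2 (log2 0.90, SE 0.17, edgeR adjusted p = 0.0058) had 0.14, 1.04, 2.11, 2.13, 1.85 and 0.87. Cry1 (log2 0.84, SE 0.18, edgeR adjusted p = 0.0197) was furthest apart at CT5, by 2.91. Ier5, an early response gene (log2 0.83, SE 0.16, edgeR adjusted p = 0.0094), and Arl4a, encoding a small GTPase of the ARF-like family (log2 0.59, SE 0.12, edgeR adjusted p = 0.0197), also departed upwards.

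Downwards, Tef (log2 -1.04, SE 0.13, edgeR adjusted p = 3.16e-06), Dbp (log2 -1.20, SE 0.26, edgeR adjusted p = 0.0296) and Per3 (log2 -1.02, SE 0.18, edgeR adjusted p = 0.00248) departed among the clock genes. Tef had a log2 difference of 1.0 at CT1, -0.10 at CT5, -1.23 at CT9, -0.96 at CT13, -0.73 at CT17 and -0.15 at CT21, so its sign turned over the day. Cipc, whose product interacts with CLOCK and inhibits it (log2 -0.76, SE 0.14, edgeR adjusted p = 0.00235), was at 429, 473, 584 and 509.7 in Bmal1 IEC-/- and 1011, 1383, 852 and 976 in control mice, without overlap. Slc20a1, a sodium-phosphate transporter whose stretch above holds 2 E-boxes, departed by -0.62 (SE 0.11, edgeR adjusted p = 0.00235). Tns4, a tensin of focal adhesions, departed by -0.77, Lnx1, an E3 ubiquitin ligase, by -1.02, 0610005C13Rik by -0.99, Eps8l3, related to the actin regulator EPS8, by -0.59 and the annexin Anxa7 by -0.40. At CT9 itself, Eps8l3 fell under 1.5-fold without SV400 (log2 fold change -0.57) and without both SV400 and SV418 (-0.55), and Anxa7 without SV401 (-0.58), without SV400 (-0.56) and without both SV400 and SV418 (-0.54). E-boxes were in the searched 250 bases of 6 of the 15 departing genes with a promoter sequence (40.0%), against 9.54% of the tested genes.

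**Figure D3:**
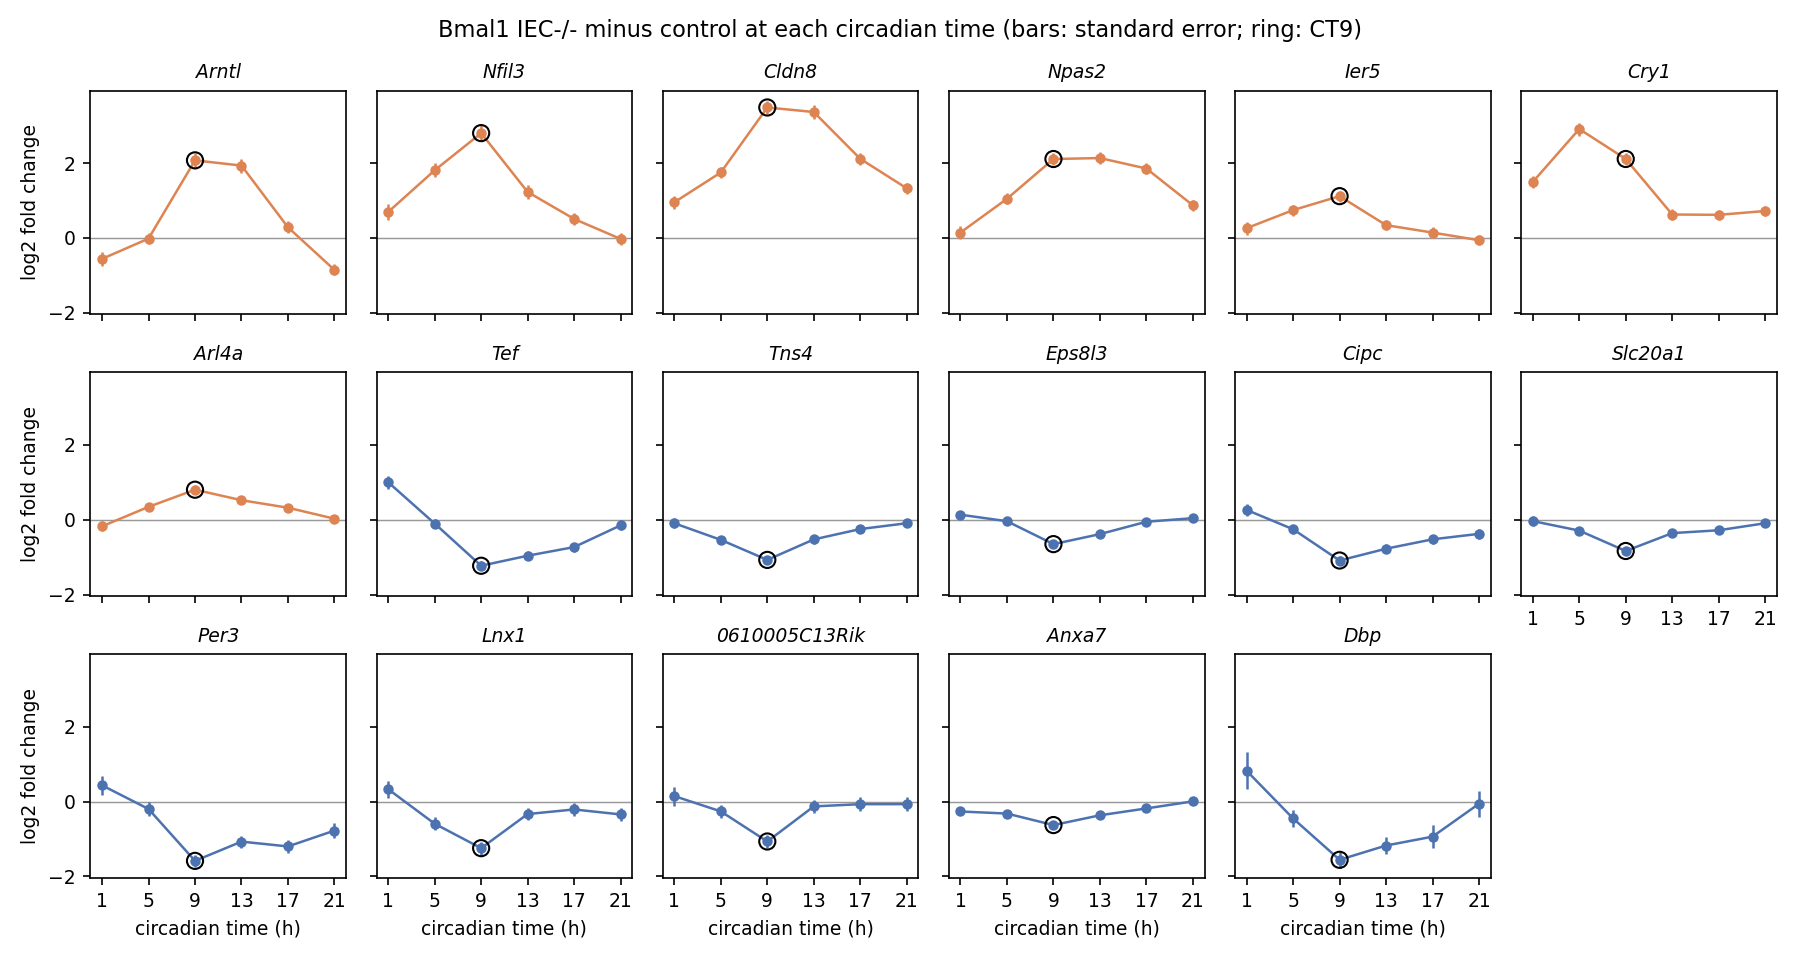
For 17 genes that passed the test of CT9 against the other times, the log2 difference of Bmal1 IEC-/- minus control is plotted at each circadian time, with its standard error and a ring at CT9. Nfil3 peaks at CT9 with 2.80, Arntl and Cldn8 are high at CT9 and CT13, and Tef runs from 1.0 at CT1 to -1.23 at CT9.

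Over the day, the group means of the 17 departing genes reported here moved less in Bmal1 IEC-/- than in control mice. The ratio of the highest to the lowest of the 6 means was smaller in Bmal1 IEC-/- mice for 17 of 17, and CT9 was the highest control mean for 10 of the 10 downward genes and the lowest for 6 of the 7 upward genes. The test that chose these genes favours an extreme control mean at CT9, so these counts are a description. Cldn8 was at 632 to 645 mean normalized counts at all 6 times in Bmal1 IEC-/- mice, a ratio of 1.02, and at 55.8 (CT9) to 328 (CT1) in controls, a ratio of 5.88. Nfil3 was at 87.5 to 96.0 against 12.9 (CT9) to 97.9 (CT21), ratios of 1.10 and 7.56. Tef kept a ratio of 2.31 (10.3 in controls), and Dbp one of 7.61 (39.6 in controls), with its highest mean at CT9 in both genotypes. The Bmal1 IEC-/- group at CT1 holds 2 mice in this fit and the others hold 4.

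Among genes of nutrient uptake at the brush border, the called members were lower. Of 22 tested members of this list, 4 were called lower and 0 higher, and 19 of 22 were below zero with a median of -0.12. Over all genes tested, 1.01% were called and the median was -0.0053. In bulk tissue, fewer cells of a type and less RNA per cell cannot be told apart. Sis (ENSMUSG00000027790, GRCm38 chr3:72888557-72967863), the disaccharidase sucrase-isomaltase, was at 69.3, 19.4, 24.0 and 65.2 in Bmal1 IEC-/- and 300.4, 429, 433 and 289 in control mice. The highest Bmal1 IEC-/- mouse was far below the lowest control, and SV402 and SV410 were the lowest (8.18-fold, log2 fold change -3.03, SE 0.30, edgeR adjusted p = 9.9e-10). Its log2 difference was -2.45 to -3.15 at all 6 times, lower in the Bmal1 IEC-/- group at each. Slc2a5, the fructose transporter GLUT5, was at 3.70, 14.1, 11.4 and 5.53 in Bmal1 IEC-/- and 59.9, 37.1, 40.4 and 25.3 in control mice, without overlap (4.62-fold, log2 fold change -2.21, SE 0.31, edgeR adjusted p = 4.71e-06). In controls its mean was highest at CT9, 40.7 ± 14.4, and 14.5 ± 6.62 at CT1. Slc15a1, the peptide transporter PEPT1, was at 10.2, 21.2, 20.6 and 13.3 in Bmal1 IEC-/- and 32.4, 39.2, 38.3 and 31.6 in control mice (log2 fold change -1.12, SE 0.27, edgeR adjusted p = 0.0118), and its call was lost without mouse SV400 (edgeR adjusted p = 0.0958) and without both SV400 and SV418 (edgeR adjusted p = 0.235). The remaining member, the aminopeptidase Enpep, was named after its values were seen (log2 fold change -0.62, edgeR adjusted p = 0.029), and its call was lost without mouse SV412, SV415, SV400, SV410 or SV418 (edgeR adjusted p from 0.0583 to 0.28) and without either pair (0.126 and 0.0848).

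Among genes of salt and water transport, more were called lower than higher. Of 34 tested members, 4 were called lower and 2 higher, 26 were below zero, and the median was -0.23. Over all genes tested, 1.01% were called and the median was -0.0053. Slc26a3, the chloride-bicarbonate exchanger of the colonic surface, was at 577, 465, 427 and 568 in Bmal1 IEC-/- and 911, 1244, 1358 and 1042 in control mice, without overlap (2.24-fold, log2 fold change -1.17, SE 0.17, edgeR adjusted p = 1.08e-05). Car4, a membrane carbonic anhydrase, was at 944, 904, 1115 and 826 in Bmal1 IEC-/- and 1773, 1558, 1345 and 1488 in control mice (1.63-fold, log2 fold change -0.71, SE 0.10, edgeR adjusted p = 6e-06). Slc20a1 was at 403, 326, 324 and 449 in Bmal1 IEC-/- and 612, 767, 694 and 594 in control mice (1.78-fold, log2 fold change -0.84, SE 0.10, edgeR adjusted p = 1.23e-07). In each of these the groups did not overlap. The other member lower, named after its values were seen, was the scaffold Slc9a3r1 (-0.64), which fell under 1.5-fold without mouse SV401 or SV418 (-0.57 and -0.58) and without both SV400 and SV418 (-0.49). Slc34a2, a sodium-phosphate cotransporter, went the other way, at 79.5, 103, 122 and 114 in Bmal1 IEC-/- and 5.89, 15.9, 5.32 and 26.2 in control mice (7.54-fold, log2 fold change 2.92, SE 0.53, edgeR adjusted p = 0.000348). Control mice SV412 and SV420 held more Slc34a2 than the other two controls, yet all stayed below every Bmal1 IEC-/- mouse. Sgk1, a kinase that stimulates epithelial sodium channels, was at 1003, 1086, 537 and 1152 in Bmal1 IEC-/- and 255, 263, 370.1 and 636 in control mice, with SV410 below control SV420 (2.46-fold, log2 fold change 1.3, SE 0.27, edgeR adjusted p = 0.00284). Without SV400 and SV418 its edgeR adjusted p was 0.0626. Outside the lists, the sulfate transporter Slc13a1 was at 112, 127, 125 and 165 in Bmal1 IEC-/- and 332, 491, 412 and 299 in control mice, without overlap (2.92-fold, log2 fold change -1.54, SE 0.18, edgeR adjusted p = 8.78e-08).

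In lipid and bile acid absorption, 3 of 20 tested members were called lower and 1 higher, with a median of 0.0096. Over all genes tested, 1.01% were called. Slc10a2, the apical bile acid transporter, was at 1103, 756, 589 and 1194 in Bmal1 IEC-/- and 1384, 1919, 1618 and 2073 in control mice, lower without overlap (1.93-fold, log2 fold change -0.95, SE 0.17, edgeR adjusted p = 0.000251). Without SV402 and SV410 its log2 fold change was -0.61 and its edgeR adjusted p 0.0527. Slc51a, a subunit of the basolateral bile acid exporter, was at 717, 738, 808 and 793 in Bmal1 IEC-/- and 572, 365, 453 and 629 in control mice (1.5-fold, log2 fold change 0.59, SE 0.13, edgeR adjusted p = 0.00868), and its call was lost without mouse SV412 (edgeR adjusted p = 0.0906), by the fold alone without SV415, SV410 or SV418 (log2 fold change 0.54 to 0.58) and without both SV402 and SV410 (log2 fold change 0.57). The apical importer was thus lower and the exporter subunit higher. Creb3l3, a transcription factor of lipid metabolism, was at 10.2, 7.07, 6.85 and 7.74 in Bmal1 IEC-/- and 17.7, 20.2, 22.3 and 25.3 in control mice (log2 fold change -1.41, SE 0.36, edgeR adjusted p = 0.025), and its call was lost without mouse SV412, SV415, SV420, SV402, SV410 or SV418 (edgeR adjusted p from 0.0503 to 0.0853), without both SV400 and SV418 (edgeR adjusted p = 0.0745) and without both SV402 and SV410 (edgeR adjusted p = 0.123). Dgat2 (-0.78), an enzyme of triglyceride synthesis, was named after its values were seen. It lost its call without any 1 of SV401, SV415, SV420, SV402, SV410 and SV418 (edgeR adjusted p from 0.0528 to 0.155) and without both SV402 and SV410 (0.224).

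Among genes of xenobiotic metabolism and efflux, members were called in both directions. Of 79 tested members, 9 were called lower and 3 higher, with a median of -0.05, beside 1.01% called of all genes tested. Abcc2, the apical efflux pump MRP2, was at 11.1, 13.3, 9.14 and 7.74 in Bmal1 IEC-/- and 59.9, 75.3, 55.3 and 25.3 in control mice, without overlap (5.12-fold, log2 fold change -2.36, SE 0.33, edgeR adjusted p = 2.64e-06). Abcg2, the efflux pump BCRP, was at 887, 683, 744 and 828 in Bmal1 IEC-/- and 394, 389, 386 and 443 in control mice, and every Bmal1 IEC-/- mouse was above every control (1.94-fold, log2 fold change 0.95, SE 0.10, edgeR adjusted p = 5.52e-09). Cyp4b1, a cytochrome P450, was at 132, 72.5, 133 and 129 in Bmal1 IEC-/- and 332, 427, 508 and 329.9 in control mice (3.46-fold, log2 fold change -1.79, SE 0.23, edgeR adjusted p = 4.41e-07). Abcc2 and Abcg2 thus went opposite ways, and Abcb1a, a further efflux pump given below, was lower. Cyp3a11, a drug-metabolizing cytochrome P450, was at 76.7, 27.4, 52.5 and 87.3 in Bmal1 IEC-/- and 1.96, 1.06, 5.32 and 3.61 in control mice and did not overlap (log2 fold change 4.28, SE 0.54, edgeR adjusted p = 2.97e-07). It rested on 239 counts in Bmal1 IEC-/- and 12 in control mice, a ratio of 19.99 with a 95% interval of 11.2 to 39.2 for counting error only, and reads that fit other Cyp3a genes make its level uncertain. Por, which passes electrons to cytochromes P450, was at 488, 411, 509 and 297 in Bmal1 IEC-/- and 700.0, 584, 644 and 690.4 in control mice (log2 fold change -0.62, SE 0.13, edgeR adjusted p = 0.00214), and its call was lost by the fold alone without SV401 or SV418 (log2 fold change -0.58 to -0.48) and without both SV400 and SV418 (edgeR adjusted p = 0.0512). The other called members, named after their values were seen, were Ugt1a1 (-0.73), Abcb1a (-0.72), Fmo5 (-0.94), Ces1d (-0.80), Aldh1a1 (-0.65) and Sult2b1 (-0.67) lower and Gstm6 (0.89) higher. Of these, Sult2b1 lost its call without any 1 of SV401, SV415, SV420, SV402, SV410 and SV418 (edgeR adjusted p from 0.0883 to 0.232) and without either pair (0.127 and 0.116), Gstm6 without SV412, SV415 or SV400 (0.056 to 0.11), and Ces1d without both SV400 and SV418 (0.0636).

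Cldn8 (ENSMUSG00000050520, GRCm38 chr16:88560828-88563183) had the smallest adjusted p of all genes. It was at 739, 518, 505 and 767 in Bmal1 IEC-/- and 64.8, 36.1, 62.7 and 59.6 in control mice, and the least of the Bmal1 IEC-/- mice was several times the highest control (11.2-fold, log2 fold change 3.48, SE 0.18, edgeR adjusted p = 2.35e-18). It was 1 of 17 tested members of the tight junction list, of which no other was called (median 0.11). Ggh, the lysosomal hydrolase of folate polyglutamates, was at 479.6, 393, 467 and 639 in Bmal1 IEC-/- and 194, 196, 199 and 164 in control mice (2.61-fold, log2 fold change 1.38, SE 0.12, edgeR adjusted p = 2.46e-11), 1 of 18 tested members of the folate list (median 0.22, 13 above zero). Arg2, the mitochondrial arginase, was at 157, 84.9, 146 and 126 in Bmal1 IEC-/- and 30.4, 45.6, 46.8 and 28.0 in control mice (3.4-fold, log2 fold change 1.77, SE 0.21, edgeR adjusted p = 6.45e-08), 1 of 20 of the arginine list (median 0.02). These genes did not overlap between the groups. Each was the only called member of its list, beside 1.01% called of all genes tested. In lists this short, 1 called gene is enough to exceed that share.

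Receptors for microbial metabolites included 2 called higher and 0 lower of 19 tested (median -0.07), beside 1.01% called of all genes tested. Ffar2, a receptor for short-chain fatty acids, was at 166, 211, 212 and 182 in Bmal1 IEC-/- and 87.4, 75.3, 71.3 and 108 in control mice, without overlap (2.23-fold, log2 fold change 1.16, SE 0.15, edgeR adjusted p = 7.14e-07). Ffar4, a receptor for long-chain fatty acids, was at 196, 202, 162 and 224 in Bmal1 IEC-/- and 83.5, 88.0, 121 and 133 in control mice (log2 fold change 0.87, SE 0.21, edgeR adjusted p = 0.0143), and its call was lost without mouse SV401 or SV412 (edgeR adjusted p from 0.0812 to 0.083) and without both SV400 and SV418 (edgeR adjusted p = 0.106). Ccl28, a chemokine that draws IgA plasma cells to mucosae, was at 467, 477, 376 and 539.5 in Bmal1 IEC-/- and 266, 264, 297 and 206 in control mice, higher without overlap (1.79-fold, log2 fold change 0.84, SE 0.16, edgeR adjusted p = 0.000694), and was the 1 member called of 23 tested for T cell trafficking and apoptosis (median -0.09). Saa3, an acute-phase serum amyloid of the epithelium, was at 40.7, 49.5, 44.5 and 37.6 in Bmal1 IEC-/- and 15.7, 14.9, 18.1 and 13.6 in control mice (log2 fold change 1.46, SE 0.39, edgeR adjusted p = 0.0356). It was the 1 member called of 29 antimicrobial genes tested (median 0.05, 2 called with DESeq2). Its call was lost without mouse SV401, SV412, SV415, SV420, SV400, SV402 or SV410 (edgeR adjusted p from 0.0625 to 0.111), without both SV400 and SV418 (edgeR adjusted p = 0.0567) and without both SV402 and SV410 (edgeR adjusted p = 0.107). Il18, the epithelial inflammasome cytokine, was at 175, 119, 109.7 and 96.2 in Bmal1 IEC-/- and 108, 58.3, 71.3 and 41.6 in control mice and overlapped (log2 fold change 0.84, SE 0.20, edgeR adjusted p = 0.0107). It was the 1 member called of 23 gasdermin and inflammasome genes (median 0.0042), and its call was lost without mouse SV412, SV420 or SV400 (edgeR adjusted p from 0.0631 to 0.136) and without both SV400 and SV418 (edgeR adjusted p = 0.0811). Zg16, a goblet cell lectin that binds bacteria, was at 6765, 5069, 9719.8 and 8819 in Bmal1 IEC-/- and 3813, 4564, 3382 and 5445 in control mice, with SV402 below control SV420 (log2 fold change 0.81, SE 0.18, edgeR adjusted p = 0.00793). It was the 1 member called of 25 goblet and mucus genes (median -0.02), and its call was lost without mouse SV415 or SV410 (edgeR adjusted p from 0.0541 to 0.0562).

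**Figure D4:**
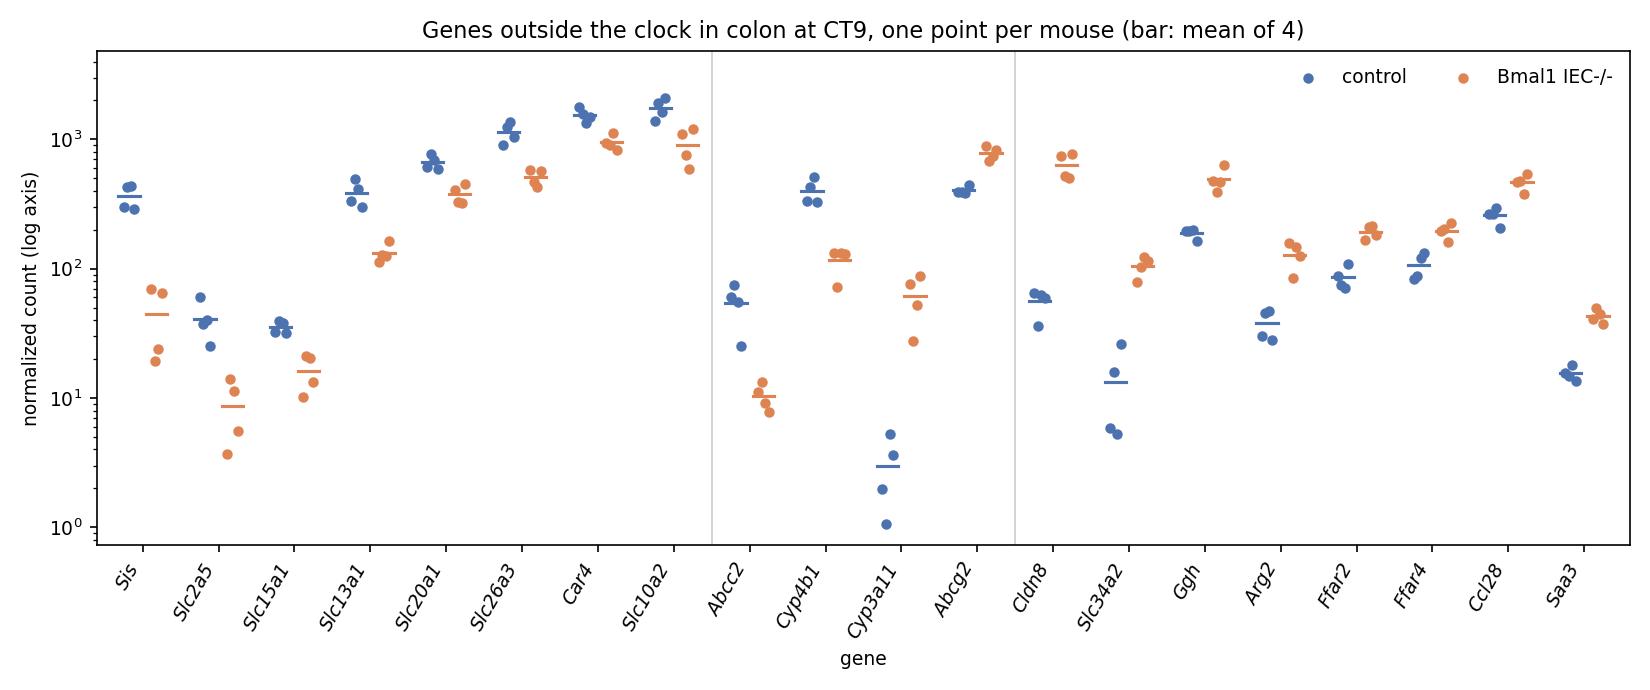
Normalized counts on a log axis of each mouse at CT9 are plotted for transport, xenobiotic, barrier and defence genes, with Bmal1 IEC-/- and control mice as separate points. Sis, Slc2a5, Slc26a3 and Abcc2 lie below the controls in every Bmal1 IEC-/- mouse, and Cldn8, Slc34a2, Cyp3a11, Ggh, Arg2 and Ffar2 above them.

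Further genes of the largest calls lay outside the lists. Smim24, a small membrane protein, was at 408, 379, 403 and 317 in Bmal1 IEC-/- and 989, 829.5, 935 and 763 in control mice (2.34-fold, log2 fold change -1.23, SE 0.11, edgeR adjusted p = 1.67e-10). Thbs4, a matrix thrombospondin, was at 12, 24.8, 19.4 and 22.1 in Bmal1 IEC-/- and 89.3, 94.4, 64.9 and 65.1 in control mice (4.01-fold, log2 fold change -2.0, SE 0.23, edgeR adjusted p = 3.17e-08), and its log2 difference was -1.59 to -2.36 at all 6 times. Both were lower without overlap. Mtch2, a protein of the outer mitochondrial membrane, was at 1598, 1116, 1334 and 1467 in Bmal1 IEC-/- and 699, 639.6, 722 and 798 in control mice (1.92-fold, log2 fold change 0.94, SE 0.09, edgeR adjusted p = 1.71e-10), and its neighbour on chromosome 2, Agbl2, a carboxypeptidase that acts on tubulin, was at 123, 54.8, 54.8 and 71.9 in Bmal1 IEC-/- and 9.82, 9.55, 9.57 and 11.7 in control mice (7.36-fold, log2 fold change 2.88, SE 0.30, edgeR adjusted p = 2.59e-09). The genes lie beside each other on the same strand, and whether they share reads was not tested. Glipr2 was at 159.9, 224, 184 and 224 in Bmal1 IEC-/- and 78.5, 73.2, 68.1 and 75.9 in control mice (2.66-fold, log2 fold change 1.41, SE 0.14, edgeR adjusted p = 3.45e-10), and Dab1, an adaptor of reelin signalling, was at 61.0, 27.4, 61.7 and 36.5 in Bmal1 IEC-/- and 12.8, 7.43, 7.44 and 12.7 in control mice (4.5-fold, log2 fold change 2.17, SE 0.29, edgeR adjusted p = 1.18e-06). All were higher without overlap. Igkv17-121, an immunoglobulin kappa segment with similar copies in the genome, was at 35.1, 23.9, 227 and 1.11 in Bmal1 IEC-/- and 2.95, 2.12, 1.06 and 1.81 in control mice, high in SV410 and at control level in SV418 (log2 fold change 5.06, SE 1.31, edgeR adjusted p = 0.0257). Its call was lost without mouse SV401, SV412, SV415, SV420 or SV410 (edgeR adjusted p from 0.074 to 0.311) and without both SV402 and SV410 (edgeR adjusted p = 0.27), with a log2 fold change of 3.29 without SV410, and the adjusted p was 0.538 with limma and voom weights. 2010109I03Rik was at 6.47, 14.1, 25.1 and 13.3 in Bmal1 IEC-/- and 41.2, 74.3, 50.0 and 56.9 in control mice (log2 fold change -1.94, SE 0.51, edgeR adjusted p = 0.0285), and its call was lost without mouse SV412, SV420, SV400, SV402 or SV418 (edgeR adjusted p from 0.0561 to 0.15) and without both SV400 and SV418 (edgeR adjusted p = 0.222).

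The remaining lists with a call held 1 to 4 called members each. Each share was above the 1.01% called of all genes tested. In lists this short, 1 called gene is enough for that. Of 17 tested clock-controlled output genes (median -0.11), Leo1 (0.67), Lonrf3 (1.3) and Tsc22d3 (0.78) were higher and Por lower. Lonrf3 lost its call without mouse SV401, SV420, SV400 or SV418 (edgeR adjusted p from 0.0635 to 0.0897) and without both SV400 and SV418 (edgeR adjusted p = 0.239) and Tsc22d3 without mouse SV401, SV415, SV420 or SV410 (edgeR adjusted p from 0.0522 to 0.126) and without both SV402 and SV410 (edgeR adjusted p = 0.152). Sgk1 and Tsc22d3 were the 2 called of 15 glucocorticoid-responsive genes (median 0.01), and Ier5 (1.11) and Nr4a2 (1.25) the 2 called of 24 immediate early genes (median -0.07). Nr4a2 lost its call without mouse SV401, SV412 or SV400 (edgeR adjusted p from 0.0661 to 0.179) and without both SV400 and SV418 (edgeR adjusted p = 0.278). Ppara, the receptor that drives fatty acid oxidation, was at 114, 91.1, 75.4 and 148 in Bmal1 IEC-/- and 153, 219, 181 and 159.9 in control mice (log2 fold change -0.74, SE 0.16, edgeR adjusted p = 0.00376), the 1 member called of 38 (median 0.04), and without SV402 and SV410 its edgeR adjusted p was 0.155. Hif1a (-0.59) was the 1 called of 32 glycolysis and hypoxia genes (median -0.03, 0 called with DESeq2), with its call lost without mouse SV412, SV415, SV402 or SV410 (edgeR adjusted p from 0.0507 to 0.119) and without both SV402 and SV410 (edgeR adjusted p = 0.231). Ifit2 (-0.88) was the 1 called of 50 interferon and MHC genes, of which 41 were below zero (median -0.17), with its call lost without mouse SV401, SV412, SV400 or SV410 (edgeR adjusted p from 0.0566 to 0.202) and without both SV400 and SV418 (edgeR adjusted p = 0.159).

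In 6 lists no member was called by edgeR or DESeq2. These were 43 genes of sterol and fatty acid synthesis (median -0.03, 4 at an unadjusted p under 0.05 with edgeR), 23 of complement (-0.08, 1), 22 of heat shock (0.06, 0), 51 of the cell cycle and DNA replication (0.18, 10, with 42 above zero), 28 of Wnt signalling and stem cells (-0.03, 6) and 31 of ER stress and secretion (0.14, 12). Over all genes, 1574 of 15073 tested were at an unadjusted p under 0.05 with edgeR. Among the ER stress and secretion genes, 1 was higher and 1 lower at an edgeR adjusted p under 0.05, both by less than 1.5-fold. In all, 53 of the 704 genes tested in lists of a role (7.53%) were called, each gene counted once, beside 1.01% of all genes tested. The lists were chosen with earlier results known.

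**Figure D5:**
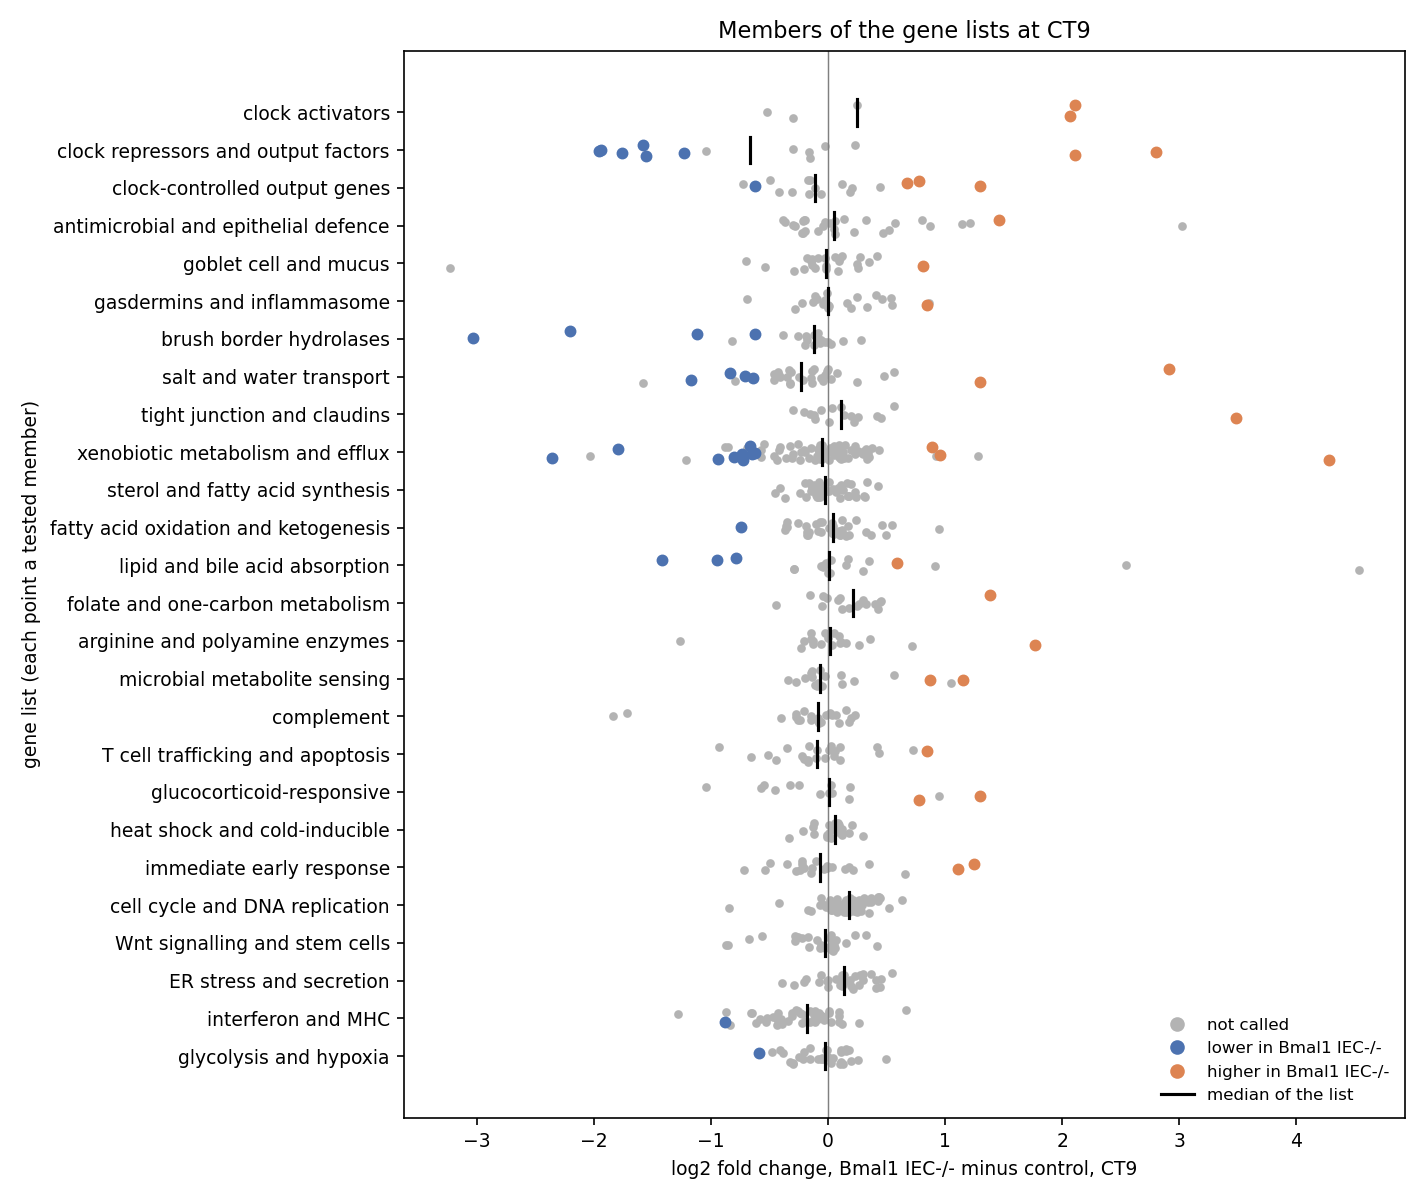
Each row is a gene list of a role (marker lists are not plotted) and each point the log2 fold change of Bmal1 IEC-/- minus control at CT9 of a tested member, coloured where called, with a black line at the median of the list. The lists of clock repressors and output factors (median -0.67), salt and water transport (-0.23) and clock activators (0.25) have, of the lists plotted, the medians furthest from zero.

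There were 7 genes followed because the study names them for these mice. Ffar2 and Abcc2, given above, are among them and were called at CT9. The others, given here, were not called. Tff2, a trefoil peptide of mucus, was at 2.77, 0, 0 and 0 in Bmal1 IEC-/- and 14.7, 6.36, 6.38 and 4.52 in control mice, which did not overlap, but it did not pass the test (log2 fold change -3.23, SE 0.91, edgeR adjusted p = 0.06). It rested on 3 counts in Bmal1 IEC-/- and 32 in control mice, 10.6-fold lower with a 95% interval of 3.32 to 54.2 for counting error only, and it passed without SV400 (edgeR adjusted p = 0.0233). Where a mouse held 0 counts, as many as 3 could have been missed by counting error alone. Retnlb, a goblet cell protein that acts on bacteria, was at 24.0, 203, 183 and 46.4 in Bmal1 IEC-/- and 12.8, 9.55, 8.51 and 23.5 in control mice, high in SV402 and SV410 (log2 fold change 3.03, SE 0.89, edgeR adjusted p = 0.0749). It passed without SV400 (edgeR adjusted p = 0.0404), without SV418 (0.0475) and without both (0.0171), and its log2 difference was 3.03 to 5.31 at all 6 times. That of Tff2 was -3.23 to -5.68. For both genes the edgeR adjusted p was under 0.05 at CT5, CT13, CT17 and CT21, and above it at CT1. The complement gene Hc (log2 fold change -0.27, edgeR adjusted p = 0.875), the chemokine receptor Cxcr4 (-0.44, edgeR adjusted p = 0.755) and the adhesion molecule Vcam1 (-0.22, edgeR adjusted p = 0.792) overlapped between the groups, and a difference was not detectable at this depth and spread. The study names Hc, Cxcr4 and Vcam1, like Ffar2 and Abcc2, for a loss of rhythm over the day. A contrast at CT9 alone does not test that.

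Markers of the colon epithelium were present in all 8 mice. Summed normalized counts of 13 epithelial markers were 40558 to 50533 in Bmal1 IEC-/- and 40263 to 48404 in control mice, none called by edgeR (2 at an unadjusted p under 0.05) or DESeq2, and those of 9 goblet cell markers 76428 to 110470 and 66967 to 93452, with Zg16 called. Among 14 small intestine markers, Defa17, Defa24, Defa30 and Olfm4 were at 0 in all 8 mice. Their sum was 2126 to 3071 against 2970 to 3729, and without Slc10a2, the 1 member called, it was 1126 to 1877 against 1379 to 1703, beside the lower brush border genes. Of 13 pancreas markers, Amy2a5, Cela2a, Cpa1, Pnlip, Prss2, Try4 and Try5 were at 0 in all 8 mice, and Zg16, which the goblet list also holds, was called.

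Markers of muscle, fat, blood and T cells were mostly below zero, and no member of these lists was called. All 13 smooth muscle markers were below zero (median -0.17, 0 called by edgeR or DESeq2, 3 at an unadjusted p under 0.05 with edgeR), with sums of 18645 to 26621 in Bmal1 IEC-/- and 24395 to 27037 in control mice. All 9 adipocyte markers were below zero (median -0.95, 0 called by edgeR or DESeq2, 1 at an unadjusted p under 0.05 with edgeR), with sums of 1172 to 1746 and 1187 to 2574, as were all 5 tested markers of blood (median -0.58, 0 called by edgeR or DESeq2 and 0 at an unadjusted p under 0.05). T cell markers were below zero for 6 of 7 tested (median -0.33, again with 0 and 0), with sums of 102.6 to 142.8 and 104.8 to 162. Plasma cell markers had sums of 11741 to 17872 and 8677 to 13909. The other lists, of enteroendocrine, tuft, fibroblast, endothelial, nerve and glial, follicle, macrophage, mast and granulocyte, skeletal muscle and squamous cells, held 0 called genes with edgeR or DESeq2 and at most 3 at an unadjusted p under 0.05 with edgeR. Below zero were 11 of 14 nerve and glial markers (median -0.18), 7 of 11 endothelial (-0.06) and 3 of 3 mast and granulocyte (-0.06). This held for 5 of 11 fibroblast (0.0078) and 4 of 11 macrophage markers (0.02). Sums of every marker list overlapped between the groups, and the part of other cells in the results above was not tested. Medians of the proximal and distal Hox genes, which mark position along the gut, were -0.0055 and 0.03.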

How the data were processed

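Colon libraries of 48 mice (6 circadian times, 2 genotypes, 4 mice each, separate animals) were made with the TruSeq Stranded mRNA kit. The authors deposited raw read counts per gene for 55401 genes. Per the study's methods and the submitters' processing notes, reads were checked with FastQC 0.11.5, trimmed with Trimmomatic 0.39, aligned to mm10 with STAR 2.7.5c and counted on exons with featureCounts 1.4.6 (SAMtools 1.3.1, DESeq2 1.22.0), leaving out reads over several features. The annotation and strand setting are not given in the sources used here, so antisense and overlapping genes are uncertain. Symbols and positions come from GENCODE vM21 (GRCm38, 55141 identifiers matched).

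Counts of 46 mice were fitted in 12 groups with edgeR 4.0.16 (TMM, filterByExpr, quasi-likelihood F test, Benjamini-Hochberg) in R 4.3.3. SV384 and SV385 (Bmal1 IEC-/-, CT1) were left out, as the study's size factors leave them out. The study's additive model of genotype and time gives no value for a single time, so the contrast at CT9 was used. Normalized counts used DESeq2 1.42.0 size factors (0.875 to 1.13 at CT9). Total counts of 3308498 to 4290393 per mouse set the precision, and intervals and floors cover counting error only.

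Named genes were Arntl and the clock lists, the 12 called genes with the smallest adjusted p and the 8 with the largest fold in each direction (mean normalized count of at least 20), 8 genes each way with the lowest adjusted p in the test against the other times, up to 3 called genes per role list, and 7 genes the study names. Results of 2 genes are not reported here, and lists and named genes are counted without them. The comparison, lists and this rule were chosen with earlier results of these data known. Alternatives were DESeq2, limma 3.58.1 with voom, other size factors, filters, thresholds and sets of mice. The edgeR fit, with the contrast at CT9 and the test against the other times, was tested on simulated counts. The other steps were not.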

Additional observations from a re-analysis of the deposited data

Results flagged for a closer look

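Single mice stood apart from the other 3 of their group, by Dixon's test, in 7 of 146 groups of named genes at CT9, where chance flags about 1 in 20 groups. Among Bmal1 IEC-/- mice, SV418 was at 163 normalized counts for Nr1d2 (229 to 238 in the others), SV402 at 72.5 for Cyp4b1 (129 to 133), SV410 at 227 for Igkv17-121 (1.11 to 35.1) and SV400 at 2.77 for Tff2 (0 in the others). In controls, SV420 was at 164 for Ggh (194 to 199), 11.7 for Agbl2 (9.55 to 9.82) and 443 for Abcg2 (386 to 394).

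The genotype difference at CT9 differed from its mean at the other 5 times in 18 genes, by edgeR's test of the difference itself (adjusted p under 0.05). Among those reported here it was, in log2 units, above that mean by 1.96 for Nfil3, 1.92 for Arntl, 1.59 for Cldn8, 0.90 for Npas2, 0.84 for Cry1, 0.83 for Ier5 and 0.595 for Arl4a. The value was -1.20 for Dbp, -1.04 for Tef, -1.02 for Per3, -1.02 for Lnx1, -0.99 for 0610005C13Rik, -0.77 for Tns4, -0.76 for Cipc, -0.62 for Slc20a1, -0.59 for Eps8l3 and -0.40 for Anxa7.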

How the results depend on the processing

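Each mouse gave 1 library and the labels give no litter, so no paired analysis was possible. Of 73 named genes, 46 kept their sign and their call, or lack of one, in every alternative computed gene by gene (at most 17, the test against a fold of 1.5 not among them). With edgeR, the 152 genes called (72 higher, 80 lower) became 283 (148, 135) with no filter on low counts (145 of the 152 among them), 269 (130, 139) with no limit on the fold change, and 40 (21, 19) when tested against a fold of 1.5. Leaving out SV402 and SV410 together, chosen after seeing the data, gave 268 (121, 147). Leaving out single mice gave 122 to 162 called genes, 60 to 77 higher and 62 to 89 lower, with a log2 fold change of Arntl from 1.88 to 2.26. The 18 genes departing from the other times became 154 with no filter, 33 without SV402 and SV410, 0 against CT5 and CT13 alone, and 13 to 22 without single mice. Such genes numbered 12 with CT1 left out of the other times and 14 with all 48 mice. DESeq2, limma with voom weights, DESeq2 size factors, a filter of 1 CPM in at least 4 mice, all 48 mice and the 8 mice alone called 113 to 151 genes. In the 8 mice alone 10 named genes lost their call, Por, Ppara, Zg16, Slc51a, Il18, Hif1a, Slc15a1, Lonrf3, Nr4a2 and Ifit2. Retnlb passed there (adjusted p = 0.0228) and with DESeq2 (0.0167), and Per1 passed there (0.0159). With all 48 mice Creb3l3, 2010109I03Rik and Hif1a lost theirs. Hif1a, at the 1.5-fold limit, also lost it with DESeq2, its size factors, no filter and the CPM filter. Rora, not called, had an adjusted p above 0.05 with no filter, with all 48 mice and in the 8 mice alone. Per1, Retnlb and Tff2 passed with no filter. Lonrf3, Nr4a2, Creb3l3 and Igkv17-121 lost their call with voom. Signs turned for genes not called, Hlf (-0.15 to 0.14 without single mice, 0.12 without SV400 and SV418), Clock (-0.19 without SV400 and SV418) and Arntl2 (0.071 without SV402 and SV410). The cause was not tested. The depth limits genes with few counts, such as Tff2.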

Other observations

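Some called genes of other roles lay outside the rule for named genes and were chosen after their values were seen. E2f2, a transcription factor of the cell cycle, was at 109 ± 30.0 normalized counts (SD, n = 4) in Bmal1 IEC-/- and 30.1 ± 10.2 in control mice at CT9 (log2 fold change 1.86, SE 0.23, edgeR adjusted p = 3.15e-07). Ddc, the decarboxylase that makes serotonin and dopamine, was at 298 ± 18.1 and 181 ± 9.47 (log2 fold change 0.71, edgeR adjusted p = 4.54e-07). Il1r1, the receptor for interleukin 1, was at 281 ± 67.6 and 151 ± 8.45 (log2 fold change 0.88, edgeR adjusted p = 4.91e-06), and Fcamr, a receptor for the Fc part of IgA and IgM, at 56.3 ± 1.91 and 27.6 ± 1.54 (edgeR adjusted p = 0.00038). Each was higher than in control mice at all 5 other times as well.

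Slc22a4, a transporter of ergothioneine and carnitine, was at 5.61 ± 3.05 in Bmal1 IEC-/- and 27.6 ± 6.46 in control mice (log2 fold change -2.30, SE 0.34, edgeR adjusted p = 1.19e-05). Slc16a5, of the monocarboxylate transporter family, was at 269.7 ± 48.8 and 446 ± 32.8 (log2 fold change -0.73, edgeR adjusted p = 0.00117), and Acsl3, which activates long-chain fatty acids, at 697 ± 112 and 1059 ± 67.3 (log2 fold change -0.61, edgeR adjusted p = 0.00242). Slc22a4 and Acsl3 were lower at all 5 other times and Slc16a5 at 4 of 5. In the 8 fits that each left out 1 mouse at CT9, the edgeR adjusted p of these 7 genes stayed between 2.82e-07 and 0.0343. Acsl3 fell under the 1.5-fold limit, and so lost its call, without mouse SV401 or SV402, with a log2 fold change as small as -0.49, and without both SV402 and SV410 (edgeR adjusted p = 0.0621), and the other 6 kept theirs in these fits and without either pair.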
